A study of Mus musculus with 8 samples.

Results

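The Ly6 surface proteins considered here are the products of 6 mouse genes, Ly6a, Ly6c1, Ly6c2, Ly6d, Ly6e and Ly6f, and their probes were taken by gene symbol from the array's annotation. Of the 6 genes, 4 had a probe, with 1 probe each: Ly6c1, Ly6f, Ly6e and Ly6d. These are 4 of 24048 probes on the array, and the 4 genes are among 14776 that the annotation names for its probes. No probe carried the symbol, gene identifier or accession of Ly6a or Ly6c2, and both genes were not analysed here. The genes were chosen by family name with the CKO minus WT differences of Ly6f and Ly6e already known, so their differences between genotypes are given as a description, without p-values.

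Virus-specific CD8 T cells without Blimp-1 were compared with cells of wild-type littermates. The CKO samples, 4 in number, came from mice of genotype Blimp-1flox/flox x GranzymeB-cre+, in which a Cre recombinase driven by the granzyme B gene, a gene that T cells switch on when activated, removes a part of Prdm1, the gene of the transcriptional repressor Blimp-1. The 4 WT samples came from littermate controls, whose flox and Cre alleles the labels do not detail. All mice had been infected with the Armstrong strain of lymphocytic choriomeningitis virus, and CD8 cells of the spleen that bound tetramers with a viral glycoprotein or nucleoprotein peptide were sorted on day 8. The labels give no age or sex and no number of animals per sample.

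Ly6 proteins are small, cysteine-rich proteins that are held on the cell surface by a glycosylphosphatidylinositol (GPI) lipid anchor instead of a membrane-spanning segment. Many of their genes lie side by side in a cluster of duplicates, whose copies can be close in sequence. On mouse T cells they serve as markers of lineage and activation: the Ly6C antigen, encoded by Ly6c1 and Ly6c2, is carried by effector and memory CD8 cells, the Ly6A antigen (Sca-1), encoded by Ly6a, appears on activation, and Ly6e belongs to the genes that interferon induces.

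Values are log2 signals, on a scale that ran from 5.33 to 15.15 with a median of 6.15 on every array, and a difference of 1 is a doubling. Probes with a mean above 6.12, the median over all probes, were tested, and a probe was called when its limma adjusted p, over the 11991 probes tested, was below 0.05. All 4 Ly6 probes passed this filter. Over all tested probes, 800 (6.67%) were called, of which 495 (4.13%) were called higher and 305 (2.54%) lower in CKO cells. With the replicate number as a block these counts were 749 and 611. They moved by more than 1.5 times when CKO3, CKO4, WT1 or WT3 was left out, to 242, 325, 286 and 312 higher and 121, 167, 165 and 202 lower. WT2 and CKO2 stood apart by a low 18S ribosomal RNA signal, 10.8 in CKO2 and 11.2 in WT2 against 12.5 to 13.0 elsewhere. Prdm1 itself had 2 probes with opposite differences, 3.20 and -1.28 (limma adjusted p = 4.43e-06 and 0.00121), and their places relative to the deleted part are not known here.

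Among the 4 Ly6 genes, Ly6c1 and Ly6f were called lower, Ly6e was called higher and Ly6d was not called, 3 of 4 beside 6.67% of all tested probes. The groups did not overlap for Ly6c1, Ly6f and Ly6e, against 13.7% of all tested probes whose groups did not overlap. Since the choice of genes drew on this comparison, nothing is read from these counts. The differences were -1.52 for Ly6f, -0.53 for Ly6c1, 0.43 for Ly6e and -0.25 for Ly6d, beside a median of -0.01 and a median size of 0.13 over all tested probes.

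**Figure D1:**
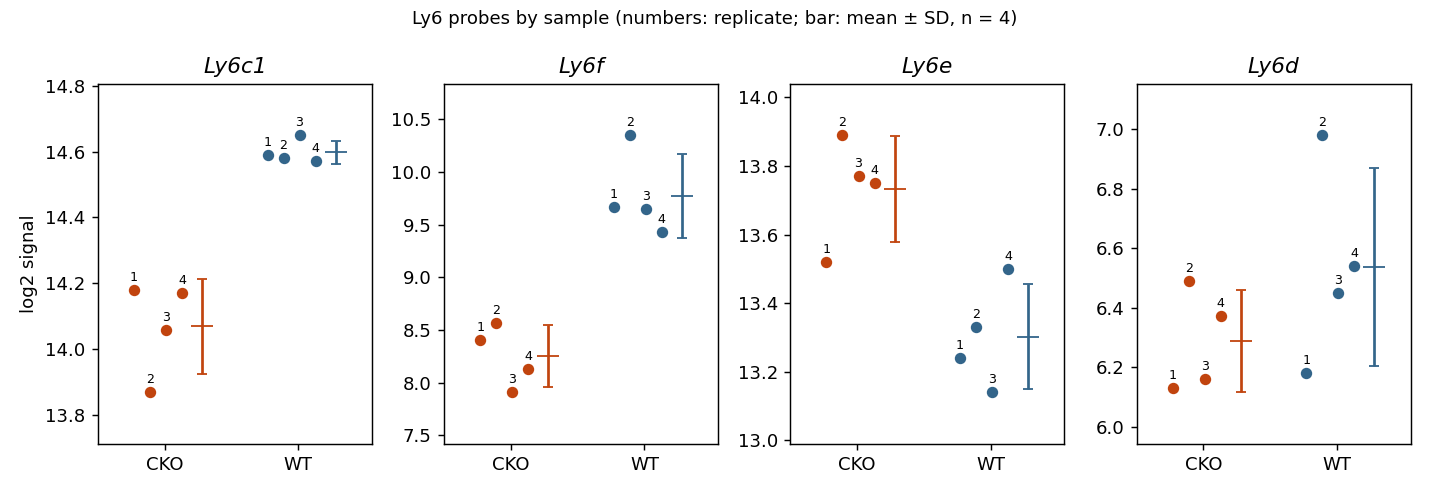
Log2 signal of the 4 Ly6 probes in each CKO and WT sample (points, numbered by replicate), with mean and SD of the 4 samples as bars, each panel on its own scale. Ly6c1 and Ly6f are lower and Ly6e higher in CKO cells without overlap, while the Ly6d groups overlap.

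Ly6c1, which encodes a form of the Ly6C antigen, was the brightest of the family. Its signal was 14.18, 13.87, 14.06 and 14.17 in CKO1 to CKO4, against 14.59, 14.58, 14.65 and 14.57 in WT1 to WT4. The WT samples lay within less than 0.1 of each other and the CKO samples were more spread, with CKO2 lowest. The means were 14.07 ± 0.14 in CKO cells and 14.60 ± 0.04 in WT cells (SD, n = 4 each), and the nearest samples of the groups were 0.39 apart. The difference was -0.53 (SE 0.10, 95% interval -0.74 to -0.31), so CKO cells had 69.5% of the WT signal. On the linear scale the mean signal was 17278 units in CKO cells and 24784 units in WT cells.

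The place of Ly6c1 in the order of brightness moved with it. It ranked between 76th and 101st among all probes in CKO samples, and between 28th and 35th in WT samples. Of the 54 other probes at least as bright, 1 was called lower (1.85%) and 2 higher (3.70%). Their differences ran from -0.46 to 0.54 with a median of 0.00, so none of the 54 had a difference as low as that of Ly6c1. As the choice of genes drew on this comparison, the place of Ly6c1 among them is a description only. No source used here says whether signals this close to the top of the scale were saturated. Ly6C is also an antigen of monocytes, whose transcripts are described further on.

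Ly6f, a neighbour of Ly6c1 in the same gene cluster, had the largest difference of the 4. Its signal was 8.41, 8.57, 7.91 and 8.13 in CKO1 to CKO4, against 9.67, 10.35, 9.65 and 9.43 in WT1 to WT4. CKO3 was lowest and WT2 highest, and the gap between the groups was 0.87, which is more than the whole range of the CKO samples. The means were 8.26 ± 0.29 in CKO cells and 9.77 ± 0.40 in WT cells (SD, n = 4 each). The difference of -1.52 (SE 0.20, 95% interval -1.97 to -1.07) was a 2.87-fold fall, to 34.9% of the WT signal. Of the 11991 tested probes, 13 (0.108%) were called lower by this much or more, Ly6f included. Since Ly6f was chosen with its difference known, this share is a description only. Its signal was above 81.1% of all probes in CKO cells and above 91.3% in WT cells.

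**Figure D2:**
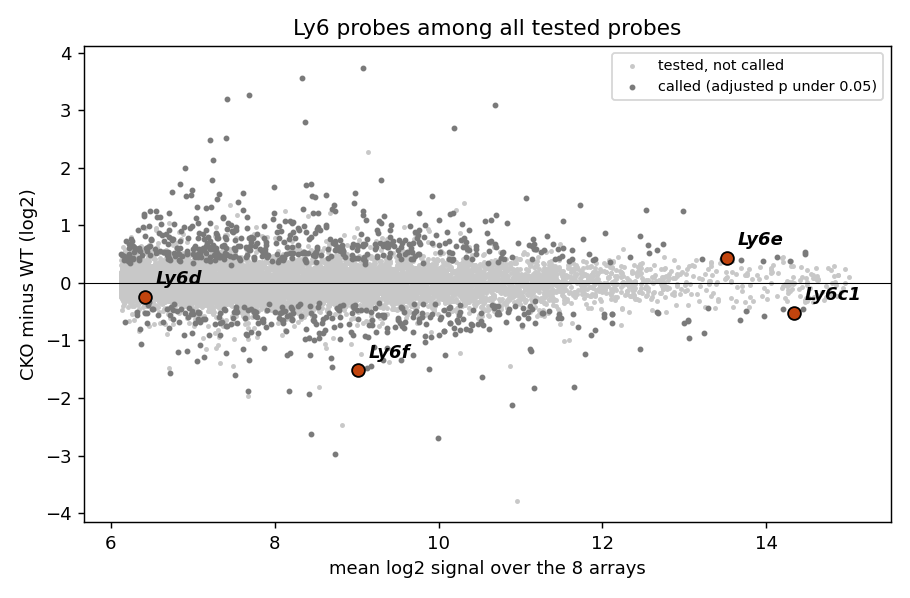
Mean log2 signal over the 8 arrays (x axis) against the CKO minus WT difference in log2 (y axis) for 11991 tested probes, with the 4 Ly6 probes in colour and called probes in dark grey. Ly6c1 lies at the bright end with a difference of -0.53, Ly6f at medium brightness with -1.52.

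The promoters of Ly6f, Ly6c1 and Ly6c2 are shown because they display how close these copies are, Ly6f and Ly6c1 being lower together and Ly6c2 lacking a probe of its own. Each runs from 250 bases before to 50 bases after a transcript start in RefSeq (GRCm38.p6), read along the gene's strand, and capitals mark runs of at least 8 bases found in all 3. Ly6f is at chr15:75268171-75268470 (+), Ly6c1 at chr15:75048788-75049087 (-) and Ly6c2 at chr15:75111922-75112221 (-).
Ly6f: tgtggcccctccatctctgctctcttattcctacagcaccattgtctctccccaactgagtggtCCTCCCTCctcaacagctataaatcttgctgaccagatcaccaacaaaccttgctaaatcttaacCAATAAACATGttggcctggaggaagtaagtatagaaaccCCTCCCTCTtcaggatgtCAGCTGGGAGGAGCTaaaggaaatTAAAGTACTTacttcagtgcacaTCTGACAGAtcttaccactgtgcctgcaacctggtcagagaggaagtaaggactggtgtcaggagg
Ly6c1: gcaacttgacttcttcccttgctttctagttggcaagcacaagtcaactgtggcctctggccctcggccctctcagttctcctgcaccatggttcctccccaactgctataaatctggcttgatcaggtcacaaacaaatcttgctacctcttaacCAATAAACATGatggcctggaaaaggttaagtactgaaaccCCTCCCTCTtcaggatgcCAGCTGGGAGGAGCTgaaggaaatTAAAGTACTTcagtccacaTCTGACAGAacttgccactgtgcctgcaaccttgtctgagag
Ly6c2: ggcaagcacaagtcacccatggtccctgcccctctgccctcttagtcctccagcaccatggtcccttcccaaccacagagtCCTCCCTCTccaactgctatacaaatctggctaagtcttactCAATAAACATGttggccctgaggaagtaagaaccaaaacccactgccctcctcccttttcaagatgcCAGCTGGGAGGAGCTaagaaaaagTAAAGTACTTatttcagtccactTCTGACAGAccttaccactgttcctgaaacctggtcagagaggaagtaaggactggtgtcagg

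In these windows the longest run common to all 3 had 15 bases. Aligned end to end with free end gaps, the Ly6f promoter matched that of Ly6c1 at 216 of 250 aligned bases (86.4%) and that of Ly6c2 at 231 of 273 (84.6%). Ly6c1 and Ly6c2 matched at 211 of 265 bases (79.6%). By edit distance against 32850 promoters of other transcripts, the 5 nearest to Ly6f all belonged to the Ly6 cluster: Ly6g with 40 edits, Ly6c2 with 87, Ly6a2 with 91, Ly6c1 with 99 and a second Ly6c2 start with 112. Of the 6 genes, these 3 had a promoter sequence.

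The promoters were searched on both strands for letters of binding sites that Blimp-1 and interferon-activated factors are known to use. The Blimp-1 type AGNGAAAG, which shares its GAAA core with the interferon-stimulated response element type GAAANNGAA, was found in 8.63% of all 32851 promoters, and the element type in 8.56%. The gamma-activated sequence type TTCNNNGAA was found in 8.30%. None of these letters was found in the 3 windows printed above. In the window around a second Ly6c1 start, AGNGAAAG was found 1 time. It also occurred at 1 site of the neighbour Ly6g, in the stretch of 232 bases that its 2 windows share. A match or its absence is a description of these letters only.

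Ly6f and Ly6c1 did not share their order of samples within a genotype. CKO2 was 0.31 above the CKO mean for Ly6f and 0.20 below it for Ly6c1, and CKO3 was 0.34 below the CKO mean for Ly6f and 0.01 below it for Ly6c1. WT2 was 0.58 above the WT mean for Ly6f and 0.02 below it for Ly6c1. Whether the Ly6f or Ly6c1 probe also binds transcripts of a close copy such as Ly6c2 or Ly6g was not tested, since probe sequences were not used here. The signals are therefore those of the probes with these names.

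Ly6e, an interferon-inducible family member also known from thymocytes, was the gene called higher. Its signal was 13.52, 13.89, 13.77 and 13.75 in CKO1 to CKO4, against 13.24, 13.33, 13.14 and 13.50 in WT1 to WT4. CKO1 and WT4 were only 0.03 apart, so the groups were separate by a narrow margin. The means were 13.73 ± 0.15 in CKO cells and 13.30 ± 0.15 in WT cells (SD, n = 4 each), a difference of 0.43 (SE 0.11, 95% interval 0.18 to 0.68) or 1.35-fold. It ranked between 99th and 129th of all probes in CKO samples, and between 132nd and 164th in WT samples. Of the 126 other probes at least as bright, 7 were called higher (5.56%) and 6 lower (4.76%), and 4 had a higher difference. As Ly6e too was chosen with its difference known, this place is a description only.

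The call for Ly6e was not stable. With 1 sample left out it was kept without CKO1 or WT4, where the difference was 0.50 each. It was lost without CKO2 (0.38), CKO3 (0.42), CKO4 (0.43), WT1 (0.41), WT2 (0.44) or WT3 (0.38), although the direction stayed the same. Ly6c1 and Ly6f were called in each of these 8 fits, with differences of -0.56 to -0.46 and -1.63 to -1.33.

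**Figure D3:**
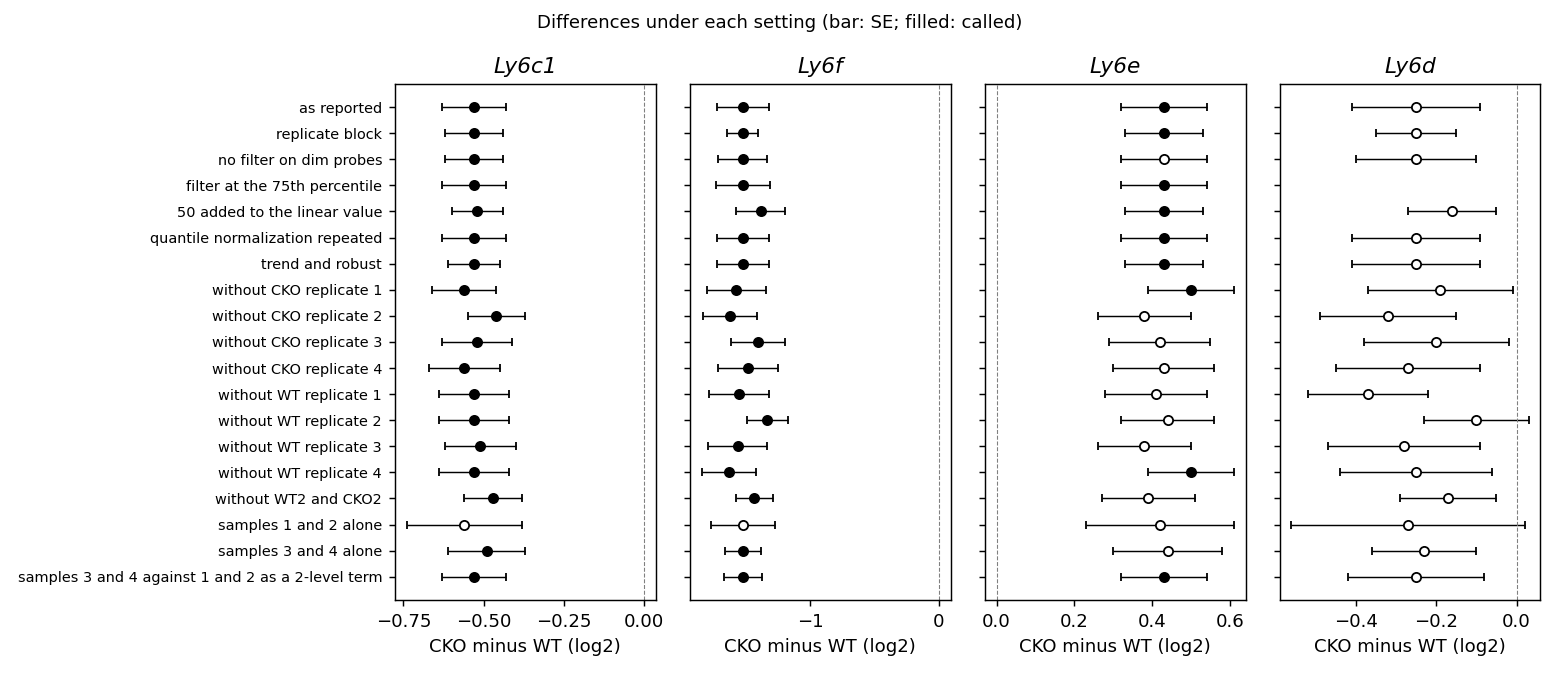
CKO minus WT difference in log2 (x axis, with SE as bars) of each Ly6 probe in the fit reported and under each other setting (rows), with filled points where the probe was called. Ly6c1 and Ly6f are called in all rows except samples 1 and 2 alone, Ly6e loses its call in 10 rows, and Ly6d is called in none.

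Other interferon-stimulated genes were set beside Ly6e. Of 30 genes listed, 25 had a probe, and 22 probes of 19 genes were tested. Limma called 2 of the 22 higher and none lower, beside 4.13% and 2.54% of all tested probes. The list median was 0.37, beside -0.01 over all tested probes, and 8 of the 22 had an unadjusted limma p below 0.05. The share of all tested probes at that limit was not counted. Nothing is therefore read from this count or from the like counts of the lists below. Usp18, which dampens interferon signalling, averaged 9.76 ± 0.67 in CKO cells and 8.20 ± 0.18 in WT cells, a difference of 1.56 (limma adjusted p = 0.00936). Cmpk2, an interferon-induced nucleotide kinase, averaged 8.99 ± 0.33 in CKO cells and 7.70 ± 0.13 in WT cells, a difference of 1.28 (limma adjusted p = 0.00164). The list was uneven over the CKO samples, with medians relative to the WT mean of 0.07, -0.01, 0.57 and 0.91 in CKO1 to CKO4, against -0.11 to 0.09 in WT samples. Ly6e was 0.22, 0.58, 0.47 and 0.45 above its WT mean in the same CKO samples, and so was highest in CKO2, which had the lowest list median of the CKO samples. The called members of the list were, like Ly6e, above every WT sample in each CKO sample. Usp18 was at 8.95, 9.53, 10.02 and 10.52 in CKO1 to CKO4, against 8.02 to 8.37 in WT samples. Cmpk2 was at 8.73, 8.67, 9.29 and 9.25, against 7.53 to 7.81. With samples 3 and 4 alone 15 of the 22 probes were called higher, beside 690 over the whole table. With samples 1 and 2 alone none was, beside 13 over the whole table. Without CKO1 4 were called higher, beside 424, and without WT2 and CKO2 4 were, beside 606. Ly6e differed by 0.44 in samples 3 and 4 and by 0.42 in samples 1 and 2.

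**Figure D4:**
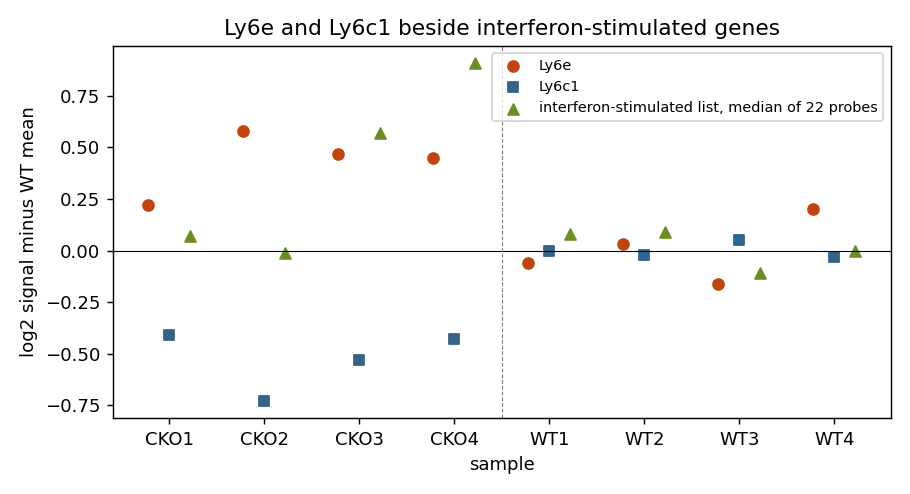
Log2 signal minus the WT mean (y axis) of Ly6e, Ly6c1 and the median of 22 interferon-stimulated probes in each sample (x axis). The list median reaches 0.57 and 0.91 in CKO3 and CKO4 only, while Ly6e is at 0.22 to 0.58 in all CKO samples and Ly6c1 at -0.73 to -0.41.

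Ly6d, known as a marker of early B lineage cells, gave a dim signal. It was at 6.13, 6.49, 6.16 and 6.37 in CKO1 to CKO4, against 6.18, 6.98, 6.45 and 6.54 in WT1 to WT4. The groups overlapped, WT2 being highest and WT1 and WT3 within the CKO range. The means were 6.29 ± 0.18 in CKO cells and 6.54 ± 0.33 in WT cells (SD, n = 4 each), a difference of -0.25 (95% interval -0.61 to 0.12) that was not called. Without WT2 it was -0.10. Of B cell markers, Cd79a, a chain of the B cell receptor complex, was at 6.27 to 6.58 in CKO samples and at 6.48, 7.49, 7.01 and 6.87 in WT1 to WT4, thus also highest in WT2. The brighter probes of Cd79b and Blnk were also highest in WT2, at 8.75 and 7.0. Their dimmer probes were highest in WT3, at 7.33 and 6.27, against 7.31 and 6.07 in WT2. Pax5 was at 5.84 in WT2 and 5.86 in WT1. The immunoglobulin mu probe described further on was at 8.92 in WT2, 9.02 in WT3 and 9.78 to 10.24 in CKO samples. The part of B cells in the Ly6d signal was not tested.

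The samples numbered 1 and 2 and those numbered 3 and 4 gave like values for the family. In samples 1 and 2 alone the differences were -1.52 for Ly6f, -0.56 for Ly6c1 and -0.27 for Ly6d, and in samples 3 and 4 alone they were -1.52, -0.49 and -0.23. With 4 arrays in each fit, none of these was called in samples 1 and 2 alone, where 13 probes were called higher and 8 lower over the whole table, and Ly6f and Ly6c1 were called in samples 3 and 4 alone. Without WT2 and CKO2 the differences were -1.43 for Ly6f and -0.47 for Ly6c1, both called, and 0.39 for Ly6e, not called.

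Along chromosome 15, the Ly6 cluster from Ly6d to Ly6f holds 28 annotated genes, 17 of them protein-coding. With 3 further genes on either side, 34 genes were looked up, of which 9 had a probe and 6 had a tested probe. Beside the 4 Ly6 genes these were Gml2, at 0.06, and Lynx1, a modulator of nicotinic acetylcholine receptors, at 0.04, and neither was called. Ly6m and Ly6i lay below the filter, with means of 6.10 and 5.95. In this order the bright genes Ly6e and Ly6c1 stand close to each other with differences of opposite sign, 0.43 and -0.53.

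**Figure D5:**
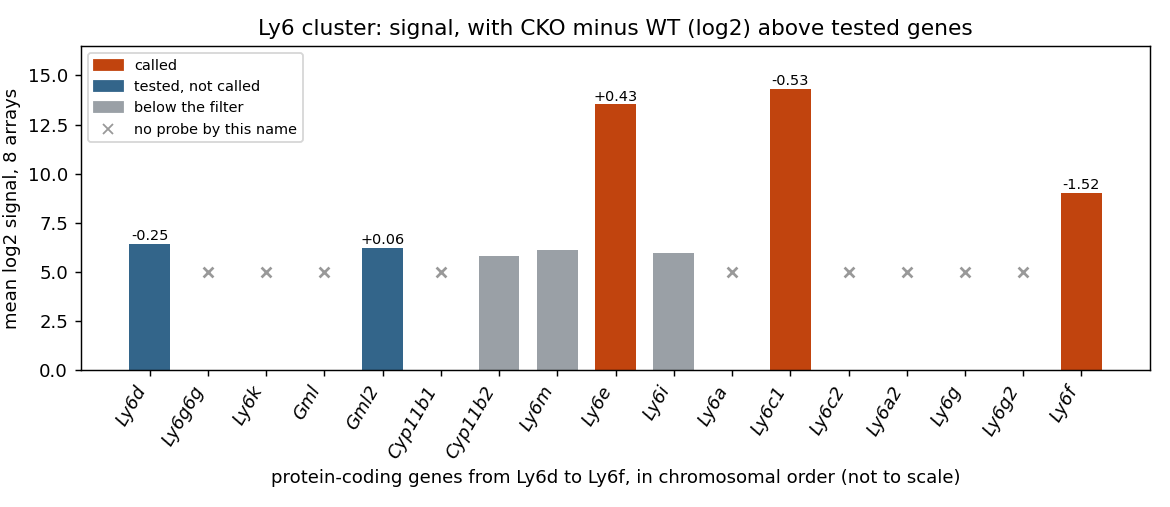
Mean log2 signal over the 8 arrays (y axis) of the 17 protein-coding genes from Ly6d to Ly6f in chromosomal order (x axis), with the CKO minus WT difference above tested genes and a cross for genes with no probe of that name. Ly6e, Ly6c1 and Ly6f are called, and the other measured genes are near the floor of the scale.

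The rest of the Ly6/uPAR family was dim in these cells. Of 41 other family genes listed, 23 had a probe, and 24 of their 26 probes stayed below 7 on all arrays. The highest value was 7.27, for Psca, prostate stem cell antigen. Only 6 probes were tested, and limma called none of them, with none at an unadjusted p below 0.05 and none with trend and robust settings. The smallest p-values belonged to Ly6g5b, at -0.20 (limma adjusted p = 0.511), and Lypd6b, at -0.09 (0.651).

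Other GPI-anchored proteins of the surface went both ways. Of 20 genes listed, 11 were tested with 1 probe each, with a median of 0.07. Limma called 3 of them higher and 1 lower, beside 4.13% and 2.54% of all tested probes. Cd160, an inhibitory receptor of cytotoxic cells, averaged 10.54 ± 0.36 in CKO cells and 9.66 ± 0.23 in WT cells, a difference of 0.88 (limma adjusted p = 0.0179). Nt5e, the ecto-5'-nucleotidase CD73, averaged 7.70 ± 0.24 in CKO cells and 6.92 ± 0.21 in WT cells, a difference of 0.78 (limma adjusted p = 0.0112). Bst1, an ectoenzyme of the CD38 family, averaged 6.63 ± 0.18 in CKO cells and 6.08 ± 0.13 in WT cells, a difference of 0.55 (limma adjusted p = 0.0175). The member called lower was Thy1, an abundant glycoprotein of T cells, at -0.46 (limma adjusted p = 0.0326). With 1 sample left out, Nt5e kept its call in all 8 fits. Cd160 lost it without CKO3, CKO4, WT1 or WT4 (0.75 to 0.86), Bst1 without CKO3, CKO4, WT1 or WT3 (0.50 to 0.55), and Thy1 without any 1 sample other than CKO2 (-0.49 to -0.41). The count of higher calls was 1 without CKO3, CKO4 or WT1, and that of lower calls was 2 without CKO2 and 0 without any other sample. With the replicate number as a block 2 were called lower.

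Among genes that make and attach the GPI anchor, of 27 listed, 14 were tested with 20 probes, and limma called none, with 1 probe at an unadjusted p below 0.05 and 1 called with trend and robust settings. The list median was -0.08. The smallest p belonged to Pigp, a subunit of the enzyme that starts the anchor, at 0.52 (limma adjusted p = 0.057), followed by Dpm1, a dolichol-phosphate mannose synthase subunit, at -0.26 (limma adjusted p = 0.31). Pigp was called with the replicate number as a block, and without CKO2 or without WT3. In 4 more settings 1 probe of the list was called higher. These were a filter at the 75th percentile, the fit without WT2 and CKO2, and samples 3 and 4 alone. The last was samples 3 and 4 against 1 and 2 as a 2-level term.

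Markers of the sorted cells and of other cells that carry Ly6 antigens were measured beside the family. The 7 probes of CD8 T cell markers averaged 12.78 to 13.02 in CKO samples and 13.16 to 13.32 in WT samples, and the 4 probes for CD4 T cells stayed between 5.79 and 5.90 in CKO and between 5.80 and 5.94 in WT samples as an average, near the floor. Of the 7 CD8 probes, Cd2, an adhesion receptor, and Thy1 were called lower, at -0.54 and -0.46 (limma adjusted p = 0.00857 and 0.0326). Of all tested probes, 2.54% were called lower. The other CD8 probes were not called, with Cd8b1 at -0.58 and -0.33, Cd3e at -0.38, Cd3g at -0.06 and Cd3d at 0.06. The list median was -0.38, and Ly6c1 was at -0.53. Of monocyte and macrophage markers, 6 of 10 genes had a probe, and their 8 probes averaged 6.15 to 6.95 in CKO samples and 6.12 to 6.60 in WT samples. Lyz2, lysozyme of macrophages, was on its brighter probe at 6.56, 6.98, 8.47 and 10.3 in CKO1 to CKO4 and at 6.45, 6.73, 8.87 and 8.75 in WT1 to WT4. It was thus high in samples 3 and 4 of both genotypes, and Ly6c1 differed by -0.49 in these samples and by -0.56 in samples 1 and 2. Adgre1, the macrophage antigen F4/80, was on its brighter probe at 7.24, 6.66, 7.02 and 8.74 in CKO1 to CKO4 and at 7.81, 6.99, 7.52 and 7.0 in WT1 to WT4, and the other 4 genes were at or below 6.51 in every sample. The part of such cells in the Ly6c1 difference was not tested.

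Neutrophil markers, 7 of 8 genes with 9 probes, averaged 6.38 to 6.58 in CKO samples and 6.56 to 7.11 in WT samples. Camp, an antimicrobial granule protein, and Ltf, lactoferrin, were called lower, at -0.79 and -0.56 (limma adjusted p = 0.00345 and 0.0455). These were 2 of 5 tested neutrophil probes, beside 2.54% of all tested probes called lower. Ltf lost its call without CKO2, CKO3, CKO4, WT3 or WT4 (-0.55 to -0.48). Camp was at 6.18 to 6.48 in CKO samples and 6.96 to 7.33 in WT samples. The brighter S100a8 was at 7.62 to 8.46 in CKO samples and at 7.99, 7.89, 9.83 and 8.89 in WT1 to WT4. S100a9 was at 7.59 to 8.78 in CKO samples and at 7.87, 7.88, 9.64 and 8.83 in WT1 to WT4. Both were highest in WT3 and not called (-0.60 and -0.50), and Ngp, at -0.40, was not called either. No probe was named for Ly6g, the neutrophil antigen of the family. B cell markers, 4 of 7 genes with 6 probes, averaged 6.48 to 6.59 in CKO samples and 6.63 to 7.08 in WT samples. A probe that the annotation leaves unnamed but whose identifier reads Ig heavy constant mu, the Ighm of this list, went the other way, with 9.87, 9.78, 9.78 and 10.24 in CKO1 to CKO4 against 8.27, 8.92, 9.02 and 8.80 in WT1 to WT4 (difference 1.16, limma adjusted p = 0.00399). With this probe, added after the values were seen, the B cell average was 6.96 to 7.11 in CKO samples and 6.86 to 7.34 in WT samples, so that the groups overlapped. Probes for the kappa, gamma 2C and lambda 1 constant regions, outside this list, averaged 11.83, 8.70 and 6.85 in CKO cells. In WT cells they averaged 12.11, 10.09 and 7.79, and none of them was called. Plasma cell markers averaged 6.13 to 6.47 in CKO and 6.14 to 6.90 in WT samples. Of these, Mzb1 was at 7.27 to 8.43 in CKO samples and at 7.17, 8.97, 8.34 and 8.16 in WT1 to WT4. It was not called (-0.40). Dendritic cell markers averaged 6.40 to 6.60 in CKO and 6.61 to 6.76 in WT samples, but without Itgax, an integrin that effector T cells also carry, the other 7 probes averaged 5.95 to 6.17 in CKO and 6.03 to 6.18 in WT samples. The NK cell average, 6.18 to 6.35 in CKO and 6.27 to 7.93 in WT samples, followed Klrb1c alone, at 6.63 to 6.77 in CKO samples and 9.95, 9.91, 6.72 and 8.04 in WT1 to WT4, while Ncr1 stayed at 5.73 to 5.93 in CKO and 5.79 to 5.95 in WT samples. Erythroid markers averaged 11.06 in CKO1 and 6.34 to 7.20 in the other CKO samples, against 9.53 to 10.93 in WT samples. The part of these cells in the Ly6 differences was not tested. In bulk samples, fewer cells of a type and less RNA per cell cannot be told apart.

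Genes whose deviations from the group means ran most like those of each Ly6 probe over the 8 samples were looked up among 4896 or 4897 named probes. For Ly6c1 they were Srsf2, a splicing factor (Pearson r of deviations 0.986), Nipsnap3b (0.962) and Abhd8 (0.958). For Ly6f they were En1 (0.989), a homeobox factor, Kifc2 (0.985) and Sf3b1 (0.977), another splicing factor. For Ly6e they were Cyp4v3 (0.946), Ogfod2 (0.913) and Cuedc2 (0.903). For Ly6d they were Capn5 (0.985), Gnaq (0.972) and Cd79b (0.965), the last a chain of the B cell receptor complex. None of these 12 probes was called between the genotypes, and none of the 4 Ly6 genes appeared on another's list. With 8 samples and 4896 or more candidates, values this high are the top of a large search and serve as a description.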

How the data were processed

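Per the labels' protocols, cRNA of 8 sorted samples was made with an Illumina kit and hybridised, 1 array each. The deposited table holds log2 values that the authors had normalized between arrays, but the method, the scanner and the background correction are not stated. Probe names came from the platform annotation, with symbols updated to GRCm38.p6, and the name given to the 18S control probe was dropped. The 4 CKO and 4 WT samples were compared on these values by limma (version 3.58.1, R 4.3.3, lmFit and eBayes, two-sided), and p-values were adjusted after Benjamini and Hochberg for 11991 probes. The script was tested on simulated data. The number of arrays limits the precision. Separate animals are not stated, so the spread may be partly technical. Genes and lists were chosen with earlier results of these data known. List members named are up to 3 called probes with the largest difference or, with none called, the 2 smallest p. Promoters were aligned with Biopython 1.88.

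Replicate numbers 1 to 4 occur in both genotypes. Samples that share a number deviated together from their group means, with correlations across probes of 0.326, 0.467, 0.181 and 0.225. Each exceeds 0.1, the limit used to call numbers pairs, and the replicate number was therefore also fitted as a block. CKO3 with WT4 and CKO4 with WT3 correlated more, at 0.264 and 0.255, so the numbers do not tell samples 3 and 4 apart. Other alternatives were 2 filters, an offset of 50, repeated quantile normalization, trend and robust settings, and subsets of samples.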

Additional observations from a re-analysis of the deposited data

Results flagged for a closer look

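Over 54 groups of 4 samples, 8 of them of the Ly6 probes themselves, 4 held a sample far from the other 3, where chance gives about 1 in 20. None of the 4 was a Ly6 probe of the 6 genes. Lypd6b, a dim Ly6/uPAR family member, was at 6.15 in CKO3 against 6.08 in each of the other CKO samples. Ltf, the neutrophil transcript, was at 6.23 in CKO1 against 5.94 to 5.99 in the others. Itgax, an integrin shared by dendritic and effector T cells, was at 9.62 in WT2 against 11.24 to 11.38 in the other WT samples. Alas2, the erythroid transcript, was at 8.43 in CKO1 against 5.97 to 6.12 in the other CKO samples.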

How the results depend on the processing

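The replicate block, the 75th percentile filter, the added offset, repeated normalization, trend and robust settings and the 2-level term for samples 3 and 4 changed no call of the 4 Ly6 probes that remained tested, the stricter filter leaving out Ly6d, and no direction changed under any alternative. With the replicate number as a block, 749 probes were called higher and 611 lower. Leaving out 1 sample gave -0.56 to -0.46 for Ly6c1, -1.63 to -1.33 for Ly6f, 0.38 to 0.50 for Ly6e, where the call was lost in 6 of 8 fits, and -0.37 to -0.10 for Ly6d, and 242 to 559 probes higher and 121 to 427 lower. Ly6e was also not called without a filter (0.43), without WT2 and CKO2 (0.39), in samples 1 and 2 alone (0.42) and in samples 3 and 4 alone (0.44). Without a filter more probes were tested, and the subsets hold fewer samples. In samples 1 and 2 alone Ly6c1 (-0.56) and Ly6f (-1.52) were not called, and 13 probes were called higher and 8 lower over the table. In samples 3 and 4 alone 553 probes were called lower, and without WT2 and CKO2 464 were, and the cause was not tested. Signals near the floor of the scale, as for Ly6d, understate differences.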
